A study of Mus musculus with 2 samples.

Results

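The unfolded protein response and the integrated stress response were followed through 10 genes: Hspa5, Hsp90b1, Dnajb9, Sdf2l1, Herpud1, Xbp1, Atf4, Ddit3, Trib3 and Ppp1r15a. They were chosen by name, and all 10 were among the 32285 genes of the count tables. The cells were adherent cells grown from the marrow of 1 wild-type male C57BL/6J mouse aged 3 months, labelled osteoclast precursors. Both cultures were first kept for 48 h without serum hormones, with M-CSF, the survival factor of the monocyte lineage, at 5 ng/mL. For the next 24 h M-CSF was raised to 100 ng/mL, and RANKL, which drives precursors toward osteoclasts, was added at 30 ng/mL together with human TNF at 10 ng/mL. The DHT culture held 1 nM dihydrotestosterone, an androgen, throughout, and the vehicle culture held ethanol. Each culture gave 1 droplet-based 3′ library. With 1 library per group from 1 mouse there was no replicate check, no test between groups was made, and DHT, culture and library cannot be told apart. All intervals are 95% intervals and cover counting error only.

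The endoplasmic reticulum folds secreted and membrane proteins. When unfolded proteins build up there, the sensors IRE1, PERK and ATF6 raise chaperones, degradation factors and the transcription factor XBP1. The kinase PERK also phosphorylates eIF2α, as do PKR, GCN2 and HRI under other stresses, which slows translation in general and favours that of ATF4, the step called the integrated stress response. ATF4 and its target CHOP, the product of Ddit3, drive amino acid genes, the pseudokinase gene Trib3 and the eIF2α phosphatase subunit gene Ppp1r15a. These counts measured transcripts at their 3′ end. Spliced and unspliced Xbp1, translation of ATF4 and phosphorylation of eIF2α were not measured.

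After filtering, the DHT library held 7708 cells and 296659811 UMIs, counts of unique RNA molecules, with 30133 in the median cell. The vehicle library held 8590 cells with 430858831 UMIs, a median of 50833.5. Levels are given as CPM, the UMIs of a gene for every 1000000 UMIs of the cells summed. The libraries shared 33 cell barcodes. Clusters, made without the 10 genes and without their pathway lists and the interferon list, were grouped into 7 classes by marker genes. Osteoclast-like cells were 1737 and 3474 cells (22.5% of DHT and 40.4% of vehicle cells), with Ctsk and Acp5 among the leading genes of their clusters 0 and 3, while their cluster 5 was led by Igkc and also had Ctsk among its leading genes. Neutrophil-like cells were 1844 and 1080 (23.9% and 12.6%), macrophage-like 912 and 950, progenitor-like (granulocyte-monocyte) 589 and 484, monocyte-like 531 and 429, B cell-like 340 and 117, and dendritic-like (conventional) 144 and 200. Cluster 1, with 561 and 1410 cells and Plxna4, Gpnmb and Nrp2 in the lead, had 7 osteoclast markers over 2-fold but 0 among its 10 leading genes and stayed unnamed. Cluster 4, with 1006 and 419 cells at a median of 1506 UMIs, also stayed unnamed. Type I interferon-stimulated genes, a list apart from the genes described except for Eif2ak2, were 1.5-fold or more higher with DHT in 34 of 48 members in osteoclast-like cells, beside 1.06% of all genes tested, and in 76 of 78 in macrophage-like cells, beside 3.47%.

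Start-site sequences of all 10 genes were matched by symbol in RefSeq (GRCm38.p6). In windows from 250 bases before to 50 bases after the start, letters of known stress elements were searched on both strands. The endoplasmic reticulum stress element, CCAAT and CCACG with 9 bases of any kind between them, was found in 39 of 32851 windows (0.119%), among them those of Hspa5 and Hsp90b1, the latter with 2 matches. The shorter element, ATTGG and CCACG with 1 base between them, was found in 12 windows (0.0365%), among them that of Herpud1. A match is a description of letters and does not show a bound site. The amino acid response element TGATGNAA was found in 1304 windows (3.97%), including those of Herpud1 and Trib3. The cyclic AMP element TGACGTCA was found in 588 windows (1.79%), including that of Ppp1r15a. The 250 bases before the start of the 3 genes with a stress element follow, because these elements were rare among all windows. Capitals mark the matches, and each sequence reads 5′ to 3′ on the strand of its gene: Hspa5 at chr2:34771840-34772089 on the plus strand, Hsp90b1 at chr10:86705445-86705694 on the minus strand and Herpud1 at chr8:94386179-94386428 on the plus strand.
Hspa5: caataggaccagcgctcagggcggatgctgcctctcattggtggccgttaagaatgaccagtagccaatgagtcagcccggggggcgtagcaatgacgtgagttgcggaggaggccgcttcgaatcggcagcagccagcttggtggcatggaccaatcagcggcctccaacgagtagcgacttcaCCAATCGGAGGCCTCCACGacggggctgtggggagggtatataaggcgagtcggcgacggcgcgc
Hsp90b1: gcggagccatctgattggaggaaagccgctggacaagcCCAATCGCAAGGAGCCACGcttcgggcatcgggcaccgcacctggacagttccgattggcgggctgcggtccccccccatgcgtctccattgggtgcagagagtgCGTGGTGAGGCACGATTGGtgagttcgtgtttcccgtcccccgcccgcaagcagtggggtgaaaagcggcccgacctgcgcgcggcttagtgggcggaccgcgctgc
Herpud1: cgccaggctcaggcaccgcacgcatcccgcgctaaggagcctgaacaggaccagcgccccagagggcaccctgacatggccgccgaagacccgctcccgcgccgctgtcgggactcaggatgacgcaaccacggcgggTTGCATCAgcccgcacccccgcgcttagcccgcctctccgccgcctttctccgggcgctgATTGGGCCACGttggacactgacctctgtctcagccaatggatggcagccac
In Hspa5 the match ended 47 bases before the start. In Herpud1 the capitals nearer the start are the shorter stress element, ending 42 bases before it, and the other capitals are the TGATGNAA element in the opposite orientation. In Hsp90b1 the first match reads along the gene and the other, ending 89 bases before the start, reads in the opposite orientation.

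The chaperones of the endoplasmic reticulum were described first by cell class. Hspa5 (chromosome 2, 34771970 to 34777547, GRCm38) encodes BiP, the main chaperone of the compartment and the switch of the sensors. It was highest in monocyte-like cells, at 828 CPM with DHT and 744 CPM with vehicle. Osteoclast-like cells had 387 CPM (interval 383 to 390.3) and 363 CPM (360.1 to 365), and neutrophil-like cells 239 and 199.7 CPM. The highest class was 3.94 times the lowest with DHT and 3.73 times with vehicle. With DHT no neighbours in the order of the 7 classes had overlapping intervals, and with vehicle only B cell-like and neutrophil-like cells did. Hsp90b1 (chromosome 10, 86690209 to 86705509) encodes GRP94, a chaperone of integrins and Toll-like receptors. It was highest in progenitor-like cells (842 and 776 CPM), stood at 499.8 and 448 CPM in osteoclast-like cells and was lowest in neutrophil-like cells (199 and 179.8 CPM). Monocyte-like and progenitor-like cells had overlapping intervals for Hsp90b1 in both libraries.

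Sdf2l1 (chromosome 16, 17130138 to 17132383), a luminal partner of the BiP co-chaperones, spanned the widest range of classes among the genes measured in all of them. Progenitor-like cells had 259 CPM in both libraries and monocyte-like cells 241 and 236 CPM. Dendritic-like cells had 119 and 163 CPM, macrophage-like cells 95.6 and 98.3 CPM and osteoclast-like cells 59.0 and 66.4 CPM. Neutrophil-like cells had 27.8 and 28.9 CPM and B cell-like cells 15.4 and 8.88 CPM, the latter from 35 and 5 UMIs. The order of the 7 classes was the same in both libraries, no neighbours overlapped, and the highest class was 16.8 times the lowest with DHT and 29.1 times with vehicle. Dnajb9 (chromosome 12, 44205559 to 44210326), which encodes the BiP co-chaperone ERdj4, ran from 11.7 and 10.8 CPM in osteoclast-like cells to 33.8 and 28.4 CPM in B cell-like cells. B cell-like and dendritic-like cells overlapped for Dnajb9.

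Herpud1 (chromosome 8, 94386438 to 94395377), a membrane component of the degradation machinery of the endoplasmic reticulum, had a different order. It was highest in B cell-like cells (142 and 121 CPM), followed by dendritic-like cells (93.2 and 98.4 CPM), and lowest in osteoclast-like cells (13.4 and 12.3 CPM). The highest class was 10.6 times the lowest with DHT and 9.78 times with vehicle. In B cell-like cells neutrophil markers summed to 1179 CPM with DHT and 13011 CPM with vehicle. The part of this RNA in the levels of that class was not tested. Xbp1 (chromosome 11, 5520659 to 5525893), the factor spliced by IRE1, was highest in monocyte-like cells (117 and 109 CPM) and lowest in B cell-like cells (53.1 and 44.4 CPM). Osteoclast-like cells had 53.9 and 48.6 CPM of Xbp1, within the intervals of B cell-like cells in both libraries.

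The genes of the integrated stress response did not share 1 order. Atf4 (chromosome 15, 80255184 to 80257541), its central transcription factor, was highest in osteoclast-like cells, at 212 CPM (209 to 215) in the DHT library and 175 CPM (173 to 176) in the other. Progenitor-like cells followed at 153 and 137 CPM, and neutrophil-like cells had 101 and 87.9 CPM. Ddit3 (chromosome 10, 127290774 to 127296288), the gene of CHOP, had its lowest level where Atf4 had its highest. It was highest in neutrophil-like cells (15.3 and 15.2 CPM) and lowest in osteoclast-like cells (5.22 and 4.67 CPM). Neutrophil-like and B cell-like cells overlapped in both libraries, and with vehicle all 6 neighbours in the order overlapped, macrophage-like and osteoclast-like cells among them. A second Ddit3 identifier in the tables, ENSMUSG00000116429, which lies inside the first, held 0 UMIs in both libraries, so all counts came from ENSMUSG00000025408.

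Ppp1r15a (chromosome 7, 45522916 to 45526268), which encodes GADD34, was highest in dendritic-like cells (33.4 and 20.2 CPM), next in osteoclast-like cells (22.5 and 19.3 CPM) and lowest in neutrophil-like cells (6.01 and 6.13 CPM). The intervals of dendritic-like and osteoclast-like cells overlapped with vehicle, where 5 of 6 neighbours in the order did, and not with DHT. Trib3 (chromosome 2, 152337422 to 152344032) was near the limit of detection throughout. All filtered cells together held 254 Trib3 UMIs with DHT and 181 with vehicle, B cell-like cells held 0 in both libraries, and no class reached 2 CPM. Over 14 points, 7 classes in 2 libraries, the genes outside the lists whose level was most like the mean of the 6 endoplasmic reticulum genes were Nrros (Pearson r = 0.96), Pycard (0.92), Erp44 (0.90), Ppib (0.88) and Rbm3 (0.88), of 3396 genes. For the 4 genes of the integrated stress response they were Rnf213 (0.79), Sppl2a (0.75), Katna1 (0.75), Nfkb2 (0.74) and Ifi27l2a (0.72). The points shared libraries and depth, and these values are descriptions.

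**Figure D1:**
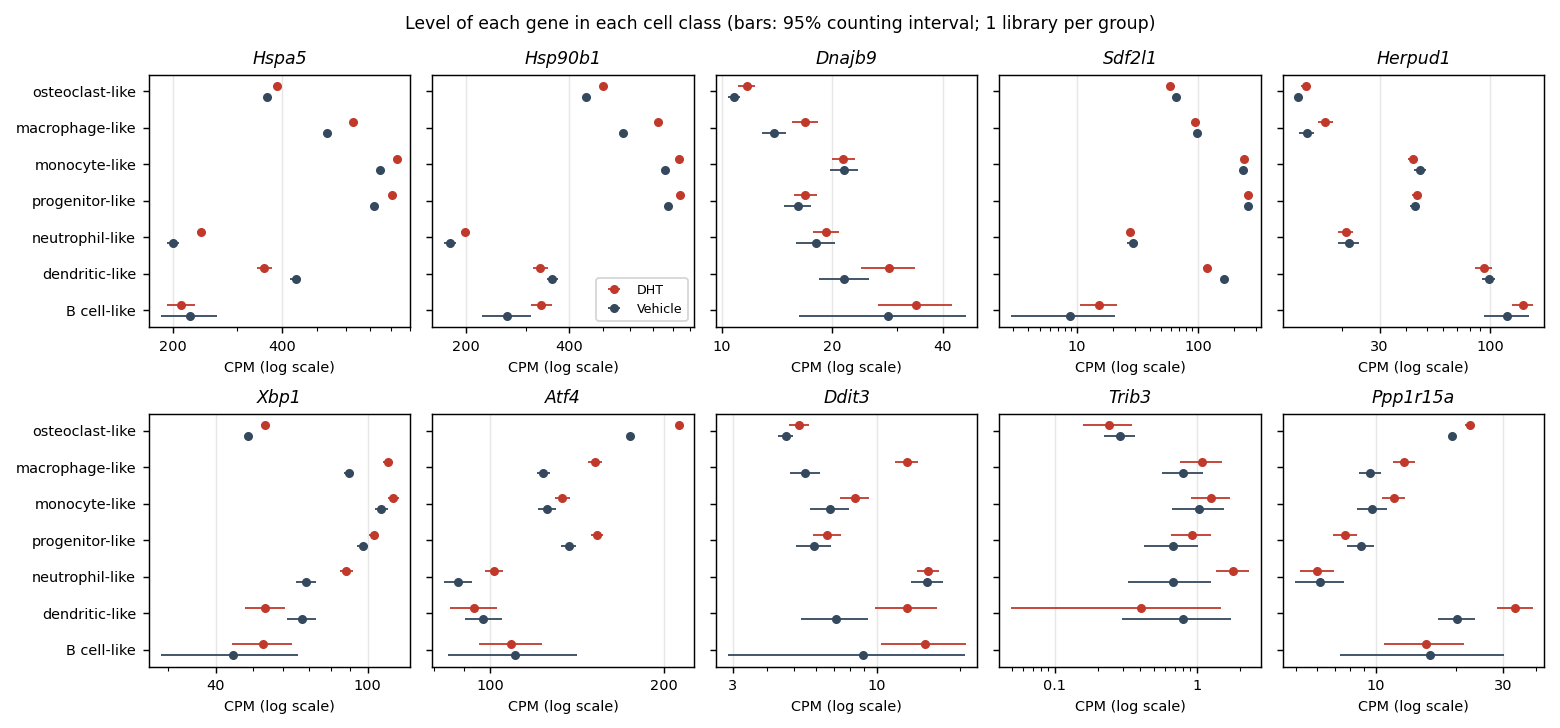
Level of each of the 10 genes in CPM (x axis, log scale) in 7 cell classes (y axis), with DHT in red and vehicle in blue; points are 1 library each and bars are 95% counting intervals, with B cell-like Trib3 at 0 not drawn. The distance between classes is larger than that between libraries for Sdf2l1, from 259 CPM in progenitor-like to 15.4 CPM or less in B cell-like cells, and for Herpud1, from 142 CPM to 12.3 CPM.

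The neutrophil-like class held 3 clusters among which the 10 genes did not share 1 order. Cluster 10 was led by Camp, Ngp, Chil3 and Fcnb, genes of immature neutrophils, cluster 7 by Ltf, Ngp and Camp, and cluster 6 by Retnlg, Il1b and Cxcr2, genes of mature neutrophils. Hsp90b1 was at 292 and 258 CPM in cluster 10, 138 and 116 CPM in cluster 7 and 89.5 and 70.6 CPM in cluster 6. Sdf2l1 was at 53.4 and 51.3 CPM in cluster 10, 6.65 and 5.67 CPM in cluster 7 and 5.51 and 4.80 CPM in cluster 6. Hspa5 was at 278 and 230.0 CPM in cluster 10 and 188 and 162 CPM in cluster 6, and Xbp1 at 106 and 81.2 CPM and 45.1 and 31.2 CPM. Of these 4 genes, Hsp90b1 and Xbp1 were lowest in cluster 6 in both libraries with no overlap of intervals, Hspa5 was so with DHT only, and Sdf2l1 had overlapping intervals in clusters 6 and 7. The co-chaperone gene Dnajb9 went the other way, with 14.2 CPM (12.3 to 16.3) and 12.9 CPM (10.5 to 15.7) in cluster 10 against 22.9 CPM (19.2 to 27.0) and 22.6 CPM (17.5 to 28.8) in cluster 6, and 23.9 and 24.1 CPM in cluster 7.

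Ddit3, Atf4 and Ppp1r15a were higher in cluster 6. Ddit3 reached 38.4 CPM there in the DHT library (33.7 to 43.6) and 32.9 CPM in the vehicle library (26.7 to 40.2), against 8.38 CPM in cluster 10 in both libraries and 11.2 and 15.1 CPM in cluster 7. Atf4 was at 152 and 147 CPM in cluster 6 and 96.6 and 78.0 CPM in cluster 10. Ppp1r15a was at 19.5 and 25.4 CPM in cluster 6, 1.48 and 1.42 CPM in cluster 7 and 3.63 and 1.33 CPM in cluster 10. Herpud1, with 13.6 and 19.2 CPM in cluster 6 and 22.5 and 21.4 CPM in cluster 10, was lower in cluster 6 in the DHT library, while the vehicle intervals overlapped. Cells of cluster 6 were the shallowest of the 3, with a median of 7523.5 and 5646 UMIs against 34996 and 28910.5 in cluster 10. The part of depth and of free RNA in these levels was not tested.

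**Figure D2:**
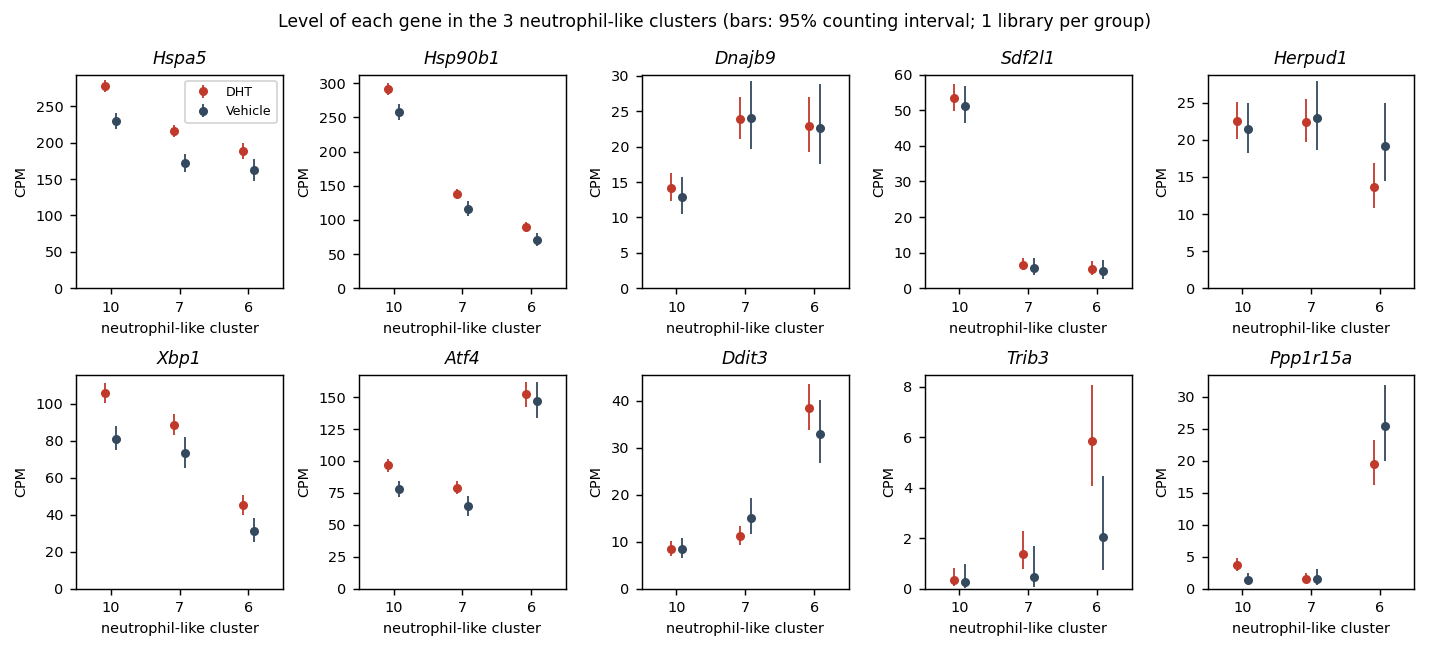
Level of each gene in CPM (y axis, from 0) in the 3 neutrophil-like clusters 10, 7 and 6 (x axis), with DHT in red and vehicle in blue; bars are 95% counting intervals and each point is 1 library. Hsp90b1 goes from 292 and 258 CPM in cluster 10 to 89.5 and 70.6 CPM in cluster 6, and Ddit3 from 8.38 CPM in both libraries to 38.4 and 32.9 CPM.

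DHT was then compared with vehicle over all filtered cells. A gene was called when its levels differed by 1.5-fold or more and the larger of them reached 20 CPM. Of all 6735 such genes 5.48% were called higher with DHT and 0.178% lower. Of the 10 stress genes 6 reached 20 CPM, and 0 were called in either direction. All 6 had log2 ratios above 0, from 0.14 for Atf4 to 0.46 for Herpud1, with a median of 0.25 against −0.02 for all genes tested. Hspa5 was at 515 CPM with DHT and 431 CPM with vehicle (log2 ratio 0.26), Hsp90b1 at 581 and 496 CPM (0.23), Sdf2l1 at 111 and 93.7 CPM (0.25) and Xbp1 at 80.4 and 62.8 CPM (0.35). Below 20 CPM, Ddit3 was at 8.0 and 5.28 CPM (0.60) and Trib3 at 0.856 and 0.420 CPM (1.03), while Ppp1r15a was at 16.3 and 16.2 CPM.

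The libraries differed in their makeup by cell class. With each class given the same weight in both libraries, the log2 ratio of Herpud1 was 0.12 and that of Hspa5 0.14. Sdf2l1 went to −0.08, a change of sign. Ddit3 was at 0.34, and Atf4 went up from 0.14 to 0.26 and Ppp1r15a from 0.01 to 0.25. Marker genes of neutrophils summed to 39201 CPM in the DHT library and 12846 CPM in the vehicle library.

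**Figure D3:**
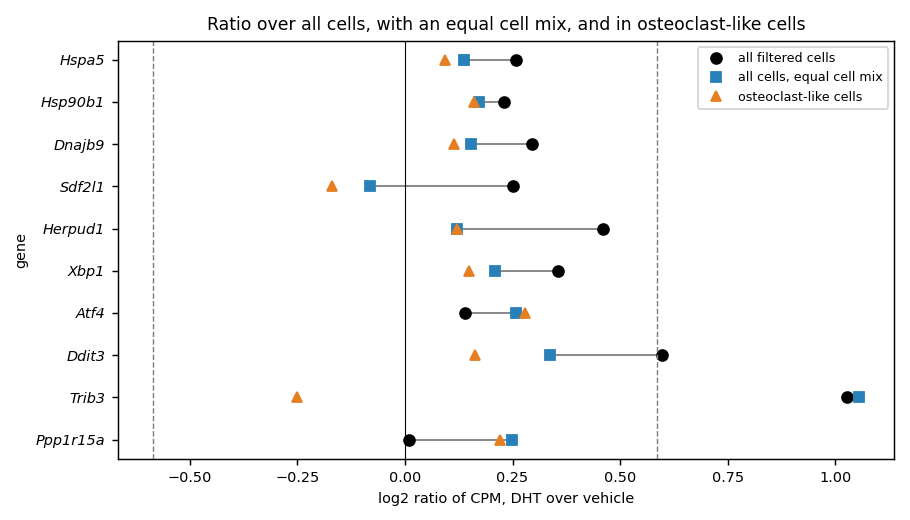
Log2 ratio of CPM, DHT over vehicle (x axis), of each gene (y axis) over all filtered cells (black circles), with the same cell mix in both libraries (blue squares) and in osteoclast-like cells alone (orange triangles); dashed lines mark 1.5-fold. Sdf2l1 lies at 0.25, −0.08 and −0.17, Herpud1 at 0.46, 0.12 and 0.12, and Atf4 at 0.14, 0.26 and 0.28.

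Within osteoclast-like cells, 1.06% of 6486 genes were called higher with DHT and 0.0463% lower, and 0 of the 6 stress genes tested were called in either direction. Their median log2 ratio was 0.15, against 0.05 for all genes tested. Atf4 had the largest of these ratios, 1.21-fold (1.19 to 1.23, log2 0.28), from 23897 and 39832 UMIs. Its log2 ratio was 0.23 in cluster 0, 0.28 in cluster 3, 0.33 in cluster 5 and 0.36 in the unnamed cluster 1, so each of these clusters had it in the same direction. Ppp1r15a had a log2 ratio of 0.22, Hsp90b1 of 0.16, Xbp1 of 0.15 and Hspa5 of 0.09. Dnajb9 (11.7 and 10.8 CPM), Herpud1 (13.4 and 12.3 CPM), Ddit3 and Trib3 stayed below the 20 CPM limit. Neutrophil markers summed to 1162 CPM with DHT and 479 CPM with vehicle. Single markers stood at up to 10.9% and 26.4% of their level in all barcodes. With free RNA, estimated from these markers, subtracted, the log2 ratio was 0.28 for Atf4, 0.23 for Ppp1r15a, 0.16 for Hsp90b1, 0.14 for Xbp1, 0.09 for Hspa5 and −0.19 for Sdf2l1.

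Sdf2l1 was the 1 tested gene of the 6 with a ratio below 1 in osteoclast-like cells. It had a ratio of 0.889 (0.863 to 0.915, log2 −0.17), and its log2 ratio was −0.38 in cluster 3, −0.19 in cluster 5 and −0.30 in cluster 1, but 0.999-fold (0.96 to 1.04) in cluster 0. In cluster 3, where Acp5 and Ctsk lead, Sdf2l1 was at 46.0 and 60.0 CPM while Hspa5 was at 505 and 502 CPM. The log2 ratio of Sdf2l1 in the class lay between −0.41 and −0.15 over 15 alternative settings. After each cell was thinned to 4719 UMIs, a Sdf2l1 UMI was present in 19.4% of 1724 osteoclast-like cells with DHT (17.6 to 21.4%), against 25% of 3454 with vehicle (23.6 to 26.5%). Without thinning these shares were 82.8% and 88.0%. After thinning to 2000 UMIs they were 8.96% (7.66 to 10.4%) and 10.5% (9.49 to 11.6%), with overlapping intervals. Neutrophil-like cells, with a low level of Sdf2l1, had it in 5.39% and 6.65% of cells thinned to 4719 UMIs, at median depths of 13050.5 and 9735.5 UMIs before thinning. B cell-like cells had it in 6.21% (18 of 290) and 5.88% (3 of 51, interval 1.23 to 16.2%), with 50 and 66 shallower cells left out. At 4719 UMIs, Atf4 was detected in 63.2% and 56.2% of osteoclast-like cells, Xbp1 in 21.8% and 20.9% and Ddit3 in 2.38% and 2.08%. At that depth the intervals of Atf4, Sdf2l1 and Hsp90b1 (87.2% and 83.9%) did not overlap between libraries. Those of the other stress genes, Xbp1 and Ddit3 among them, overlapped. The share of all genes without overlap was not computed.

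A few barcodes of the osteoclast-like class carried immunoglobulin RNA. In cluster 5, 3 DHT barcodes and 1 vehicle barcode held 97.3% and 94.6% of the immunoglobulin and Jchain UMIs of the class. Xbp1, which plasma cells need for secretion, was at 771 CPM in the 3 DHT barcodes (82 UMIs) and 495 CPM in the vehicle barcode (13 UMIs), and Hsp90b1 was at 1663 CPM in the former. Without them the log2 ratio of Xbp1 in the class was 0.13, against 0.15 with them. Leaving them out was chosen after the data were seen.

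Macrophage-like cells had the largest shift of Ddit3. Of 6598 genes tested there 3.47% were called higher and 1.49% lower, and 0 of the 5 stress genes at 20 CPM were called. Ddit3, below that limit, had 437 UMIs with DHT, a level of 12.8 CPM (11.7 to 14.1), and 260 with vehicle, a level of 5.50 CPM (4.85 to 6.21), a ratio of 2.33 (2.00 to 2.73, log2 1.22). Over 13 alternative settings its log2 ratio lay between 1.00 and 1.75, the latter when CPM was computed cell by cell and averaged. In thinned cells the share with a Ddit3 UMI was 5.69% (4.25 to 7.43%, 879 cells) in the DHT library and 2.98% (1.99 to 4.27%, 941 cells) in the vehicle library. Without thinning it was 27.3% and 19.7%. Osteoclast-like cells, with the lowest level of Ddit3, had it in 2.38% and 2.08% of thinned cells. Median depths in macrophage-like cells were 34145.5 and 50707.5 UMIs before thinning. The class also differed between libraries in other RNA. Its osteoclast markers summed to 841 CPM with DHT and 424 CPM with vehicle. The proliferation marker Mki67 went the other way, with 178 CPM in the DHT library and 310 CPM in the vehicle library. The part of these differences in the Ddit3 ratio was not tested.

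The Ddit3 UMIs were spread unevenly over these cells. Cells with at least 3 numbered 40 of 912 in the DHT library (4.39%) and 14 of 950 in the vehicle library (1.47%), and the 10 cells with the most held 17.4% and 16.5% of all Ddit3 UMIs. In the 40 DHT cells Trib3 was at 6.63 CPM (11 UMIs), against 0.889 CPM in the 663 DHT cells without Ddit3. Nupr1, a stress-induced chromatin protein and a target of the pathway, was at 151 CPM (133 to 171) against 18.3 CPM. Atf3, a transcription factor of the response that is also on the immediate early and dissociation stress list, was at 108 against 30.1 CPM. Among other genes of the integrated stress response, Atf4, Ppp1r15a, Asns, Sesn2 and Chac1 had overlapping intervals between these cells. Atf4 was at 169 against 155 CPM, Ppp1r15a at 11.5 against 12.7 CPM and Asns at 12.1 against 9.19 CPM. Sesn2 was at 7.23 against 8.72 CPM and Chac1 at 0 against 0.381 CPM. Eif2ak3, the gene of PERK, was lower without overlap, at 8.44 CPM (4.61 to 14.2) against 17.5 CPM (15.9 to 19.3). The sensor gene Ern1 was also lower (23.5 against 37.6 CPM) and Xbp1 higher (145 against 109 CPM), both without overlap. Hspa5 was at 643 against 596 CPM and Hsp90b1 at 679 against 714 CPM, while Sdf2l1 was at 129.6 CPM (113 to 148) against 89.5 CPM (85.7 to 93.4). The median depth was 32344.5 and 32467 UMIs, and the median mitochondrial share 1.253% and 2.458%. With vehicle the 14 cells had Nupr1 at 18.6 CPM (11.2 to 29.0) against 11.2 CPM (10.2 to 12.4) in 763 cells without Ddit3. Trib3, Sesn2 and Chac1 also had overlapping intervals there. Ppp1r15a was at 21.5 CPM (13.5 to 32.6) against 8.86 CPM (7.92 to 9.88), without overlap. Asns (20.5 against 8.14 CPM), Atf3 (60.7 against 25.9 CPM) and Herpud1 (23.5 against 12.8 CPM) were also higher without overlap. So was Hspa5 (666 against 513 CPM). With vehicle, Eif2ak3 (16.6 against 16.3 CPM), Ern1 (30.3 against 36.9 CPM) and Xbp1 (95.9 against 87.2 CPM) had overlapping intervals. Sdf2l1 overlapped too, at 86.1 against 97.4 CPM, so it was not higher there as it was with DHT. The median depth of these vehicle cells was 71496 against 48994 UMIs. Atf3, Sesn2, Chac1, Eif2ak3, Ern1 and Xbp1 in these cells, and the vehicle genes other than Nupr1, were chosen after their values were seen. The share of all genes without overlap in these comparisons was not computed, and the intervals do not cover the spread between cells.

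Other stress genes of macrophage-like cells had smaller ratios. Log2 ratios were 0.34 for Hsp90b1 (723 and 572 CPM), 0.33 for Xbp1 (113 and 89.6 CPM), 0.30 for Atf4 (152 and 124 CPM) and 0.24 for Hspa5 (629 and 531 CPM). Sdf2l1 was at −0.04, with an interval of its ratio from 0.929 to 1.02. Neutrophil markers summed to 1636 CPM with DHT and 639 CPM with vehicle in macrophage-like cells, and markers of macrophages to 2659 and 1466 CPM. The neutrophil marker with the largest share stood at 138% and 271% of its level in all barcodes. These cells thus did not lack the whole list. With free RNA, taken at the median share of the neutrophil markers, subtracted, the log2 ratio of Ddit3 was 1.24.

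In neutrophil-like cells, where 2.11% of 5264 genes were called higher and 0.342% lower, 0 of 6 stress genes tested were called. Xbp1 was at 87.9 and 69.0 CPM (log2 ratio 0.35) and Hspa5 at 239 and 199.7 CPM (0.26). Trib3 was at 1.79 CPM (56 UMIs) with DHT and 0.681 CPM (10 UMIs) with vehicle, a ratio of 2.62 with a wide interval from 1.33 to 5.77. Ddit3 had a ratio of 1.00 (0.855 to 1.18) in this class, where its level was highest.

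Monocyte-like cells had 1.57% of 6235 genes called higher and 0.401% lower, and progenitor-like cells 1.26% and 0.218% of 6408. In these classes 0 of 7 and 0 of 6 stress genes tested were called. Hspa5 had log2 ratios of 0.15 and 0.17 there and Sdf2l1 of 0.03 and 0.00. In dendritic-like cells 9.76% of 6437 genes were called higher and 3.67% lower. Of 8 stress genes tested 1 was called, Ppp1r15a, at 33.4 CPM (164 UMIs) and 20.2 CPM (151 UMIs), 1.65-fold (1.32 to 2.07), and 6 of the 8 had log2 ratios below 0. Among these 6, Sdf2l1 had a log2 ratio of −0.45, Xbp1 of −0.32 and Hspa5 of −0.29. In B cell-like cells, where 10.5% of 6912 genes were called higher and 7.64% lower, 0 of 6 were called.

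Read across the 7 classes, Hsp90b1 had a log2 ratio above 0 in 6, with a counting interval above 0 in each of these, and Xbp1 in 6, with 5 such intervals. Hspa5 and Atf4 were above 0 in 5, each with 5 such intervals. Hsp90b1, Xbp1 and Hspa5 each had 1 interval below 0, in dendritic-like cells. Sdf2l1 was above 0 in 3 classes, with 0 intervals above 0 and 2 below it, those of osteoclast-like and dendritic-like cells. Ddit3 was above 0 in all 7, with 4 intervals above 0, and reached 20 CPM in 0 of them. Medians of all genes tested ran from −0.02 in dendritic-like to 0.05 in progenitor-like cells. The share of all genes meeting the same rules was not computed, and genes with many UMIs have narrow intervals. All 7 classes came from the same libraries, so they are not repeats of a comparison. The counting intervals do not hold the spread between cultures, which was not measured here.

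**Figure D4:**
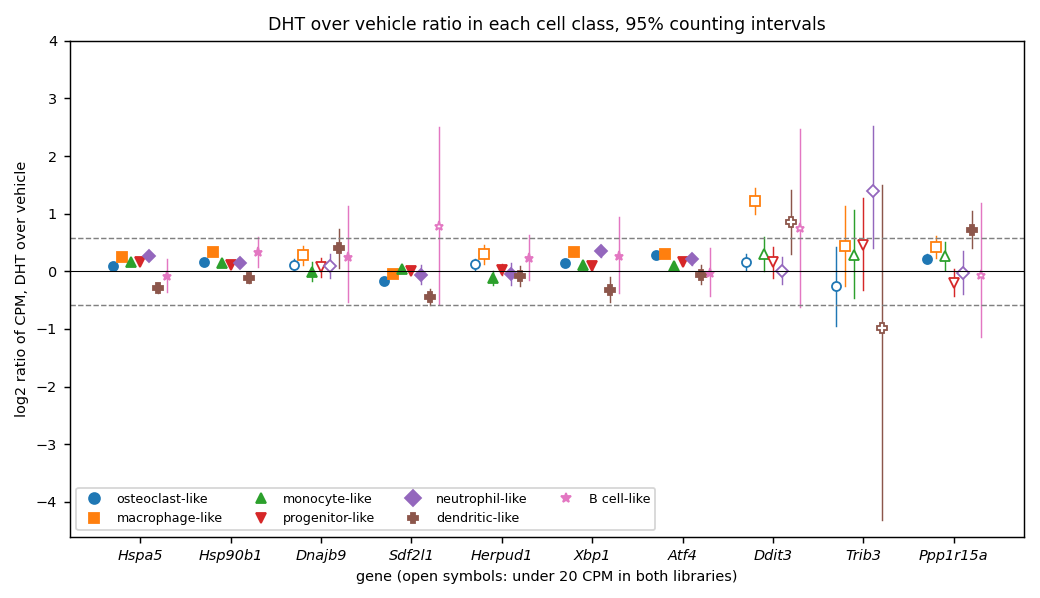
Log2 ratio of CPM, DHT over vehicle (y axis), of each gene (x axis) in 7 cell classes (symbols), with 95% counting intervals as lines; open symbols are under 20 CPM in both libraries, dashed lines mark 1.5-fold, and Trib3 in B cell-like cells, at 0 in both libraries, is not drawn. Filled symbols lie between the dashed lines except Ppp1r15a in dendritic-like cells (0.72), and the open square of Ddit3 in macrophage-like cells lies at 1.22.

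The rest of the pathway was described by 6 lists with 131 genes in the tables, which include the 10 genes. In osteoclast-like cells 1 of 102 tested genes was called higher and 0 lower, with a median log2 ratio of 0.08. Of all genes tested there 1.06% were called higher, with a median of 0.05, so the count of pathway genes called was near the background. The 1 gene was Eif2ak2, which encodes PKR, an eIF2α kinase switched on by double-stranded RNA and itself interferon-induced and a member of the interferon list. It was at 58.9 and 33.4 CPM (log2 ratio 0.82) in osteoclast-like cells, 92.1 and 42.9 CPM (1.10) in macrophage-like cells and 86.8 and 42.1 CPM (1.04) in neutrophil-like cells. The other eIF2α kinases of osteoclast-like cells were near 0: Eif2ak3, the gene of PERK, at 0.03, Eif2ak4, the gene of GCN2, at 0.03 and Eif2ak1, the gene of HRI, at 0.08. The sensor genes Ern1 (51.5 and 48.5 CPM, 0.09) and Atf6 (123 and 119.8 CPM, 0.04) were close to them.

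List medians in osteoclast-like cells ran from 0.05 for chaperones and folding enzymes to 0.13 for targets of ATF4 and CHOP, beside 0.05 for all genes tested. In each of these lists 18 of 21 tested genes were above 0, and the share of all genes above 0 was not computed. An alternative scaling (TMM) moved all ratios of the class by −0.06. Among chaperones Hyou1, a nucleotide exchange factor of BiP, was highest (0.28), and Grpel1, a mitochondrial exchange factor kept in the list by name, lowest (−0.23). Edem1 (0.31) and Derl2 (−0.08) bounded the degradation list, Sec23b (0.24) and Ssr4 (−0.26) the translocation and transport list, and Slc7a5 (0.32) and Slc3a2 (−0.07), both chains of an amino acid transporter, the targets. Cytosolic heat shock genes had a median of −0.01 with 0 of 11 called.

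In macrophage-like cells 2 of 103 pathway genes were called higher and 0 lower, Eif2ak2 and Nupr1, beside 3.47% and 1.49% of all genes tested. Nupr1 was at 29.1 CPM (990 UMIs) with DHT and 11.7 CPM (551 UMIs) with vehicle, a log2 ratio of 1.32, and at 3.23 and 2.88 CPM in osteoclast-like cells. Hyou1 (56.7 and 40.1 CPM, 0.50) and Syvn1, the ubiquitin ligase of endoplasmic reticulum degradation (21.3 and 15.4 CPM, 0.47), were the highest of their lists, and Grpel1 and the signal peptidase subunit Sec11c the lowest (both −0.44). Targets of ATF4 and CHOP had a median of 0.01 over 23 genes. Asns, the asparagine synthetase and a target of ATF4, was at 9.21 and 8.37 CPM. Immediate early and dissociation stress genes had 3 of 16 members called higher, Zfp36 (1.06), Ier3 (0.84) and Klf2 (0.66), and a median of 0.34, beside 3.47% called higher and a median of 0.01 for all genes tested in the class. Their part in the values of Ddit3 and Nupr1 was not tested, nor was that of the Mki67 and osteoclast marker differences of the class.

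Over all filtered cells beside 5.48% of all genes called higher and 0.178% lower, 3 of 103 pathway genes were called higher and 0 lower, Eif2ak2 (0.91), the cystine transporter Slc7a11 (105 and 58.5 CPM, 0.85) and the serine synthesis enzyme Phgdh (60.7 and 34.8 CPM, 0.80). Within neutrophil-like cells Slc7a11 was at 646 and 764 CPM (−0.24) and Phgdh at 42.4 and 60.0 CPM (−0.50), so both had the opposite sign there. In osteoclast-like cells Slc7a11 was at 11.6 and 12 CPM and Phgdh at 13.5 and 8.96 CPM (0.59), both below the 20 CPM limit.

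**Figure D5:**
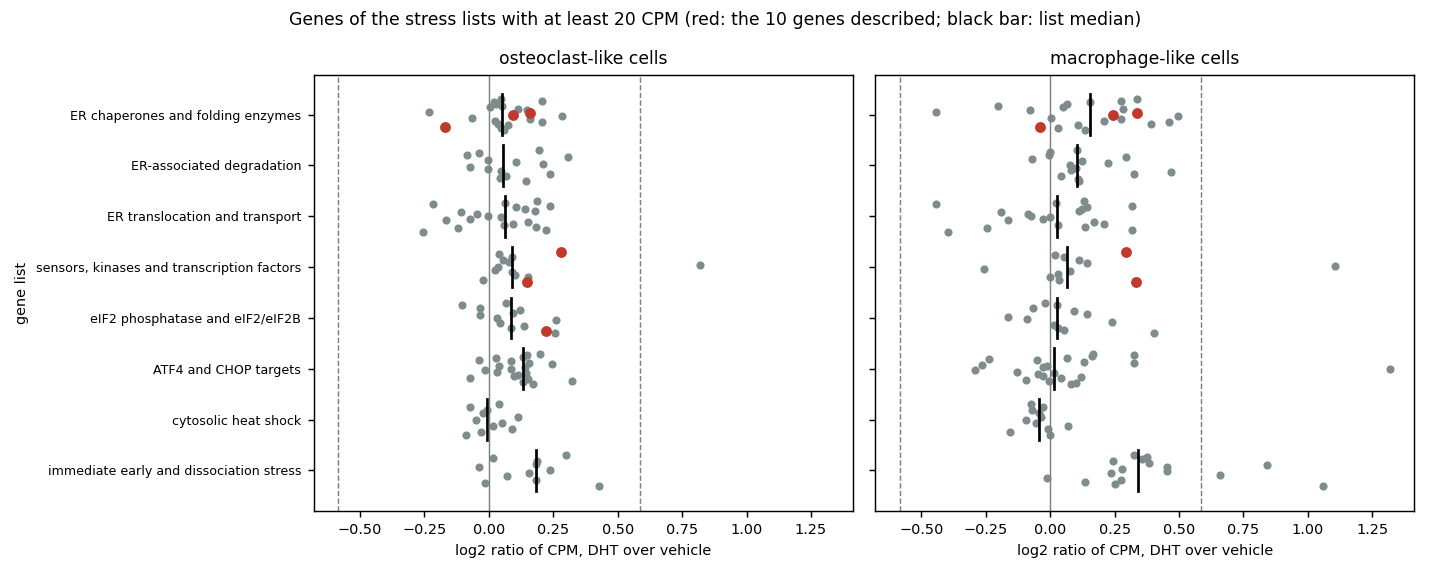
Log2 ratio of CPM, DHT over vehicle (x axis), of each gene with at least 20 CPM in the 6 pathway lists and in lists of cytosolic heat shock and of immediate early and dissociation stress genes (y axis), in osteoclast-like (left) and macrophage-like cells (right); red points are the genes described here, black bars list medians and dashed lines 1.5-fold. Points past the right dashed line in the pathway lists are Eif2ak2 in both panels (0.82 and 1.10) and Nupr1 (1.32) on the right.

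The 2 chaperone genes detected in most thinned cells were set against each other cell by cell. Over thinned osteoclast-like cells the Spearman correlation of Hspa5 and Hsp90b1 was 0.22 with DHT (1724 cells) and 0.21 with vehicle (3454 cells), and over macrophage-like cells 0.32 (879 cells) and 0.35 (941 cells). The cells of a library share their preparation, so these values are descriptions. In osteoclast-like cells Atf4 had correlations of 0.01 with DHT and 0.01 with vehicle with Hspa5, and of 0.04 and 0.05 with Hsp90b1. Thinned Atf4 had a mean of only 1.09 and 0.87 UMIs per cell there. Counting error at such levels draws correlations toward 0, so these values do not show that the genes vary independently. Over macrophage-like cells Xbp1 and Hspa5 had 0.19 and 0.18, and Sdf2l1 and Hspa5 0.11 and 0.13. Dnajb9, Herpud1, Ddit3, Trib3 and Ppp1r15a had a UMI in too few of these thinned cells for such a value to be read.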

How the data were processed

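Adherent marrow cells of 1 mouse were sequenced as 1 DHT and 1 vehicle library. The authors deposited, for each library, raw UMI counts per gene and barcode, made with Cell Ranger 7.0.1, per the submitters' processing notes. These list GRCh38 and mm10 but give neither a role. Whether intronic reads were counted, and how barcodes were called as cells, is not given in the sources used here. Gene positions are from GENCODE M21 (GRCm38, the assembly of mm10), where 99.6% of 32285 identifiers matched, and start-site sequences are from RefSeq.

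The 10 genes, the lists and the settings were chosen with earlier results of these data known. Barcodes with at least 300 genes, 800 UMIs and at most 10% mitochondrial UMIs were kept: 7911 of 10798 with DHT and 8746 of 10630 with vehicle. Scrublet in scanpy 1.11.5 (expected rate 0.08) removed 203 (2.57%) and 156 (1.78%) doublets. Clusters used 2000 variable genes without the interferon and stress lists, 30 components, 15 neighbours and Leiden resolution 0.6 (leidenalg 0.10.2). A cluster was named from 19 marker lists when a type led by markers in the top 10 genes by fold over the median cluster (10 CPM added) and had 3 or more and 50% of its markers over 2-fold. Clusters under a median of 2000 UMIs were not named, and the 7 classes reaching 100 cells in each library were compared.

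UMIs were summed per library and class and divided by the total. CPM have exact Poisson, shares exact Clopper-Pearson and ratios exact conditional binomial intervals (95%). UMI totals set their precision, and PCR and culture variation are not covered. Thinning to 4719 UMIs, the 10th percentile, left out shallower cells (13 DHT and 20 vehicle osteoclast-like cells, 33 and 9 macrophage-like cells). Free RNA in a class was taken from the neutrophil markers, at a median of 3.65% and 3.80% of their level in all barcodes in osteoclast-like cells and 3.89% and 4.54% in macrophage-like cells. Named genes are the 10 genes, 6 sensor and kinase genes, and of each list the highest, the lowest and those called. The steps were tested on simulated counts. Alternatives covered scaling (edgeR's TMM, median of ratios), cell filters, doublets, clustering, free RNA, cell mix and the call limits.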

Additional observations from a re-analysis of the deposited data

How the results depend on the processing

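Of 256 alternative counts of stress genes called, 234 were equal to or within 1.5 times the count reported. The rest came mainly from the limits of the call. With the lowest fold limit tried, 2 genes were higher over all filtered cells, 2 in macrophage-like, 1 in neutrophil-like, 2 in dendritic-like and 1 in B cell-like cells, and 1 was lower in dendritic-like cells. With no limit on low values, 2 were higher over all filtered cells, 1 in macrophage-like, 1 in neutrophil-like, 2 in dendritic-like and 3 in B cell-like cells, and 1 was lower in dendritic-like and 1 in B cell-like cells. In dendritic-like cells 0 were higher with a 2-fold limit or a 50 CPM filter, and 1 was lower by the mean of each cell's CPM. In B cell-like cells 1 was higher with the deeper library thinned, 2 with a mitochondrial limit of 20%, 2 with no doublet removal and 2 with all variable genes, and 1 was lower with the limit of 20% and 1 with all variable genes. The share of all genes called under these settings was not computed, so these counts have no background beside them. The cause of these counts was not tested. Of 949 alternative log2 ratios 801 stayed within the counting interval. Some ratios near 0 changed sign, among them Ddit3 in neutrophil-like cells in 7 of 12 alternatives. Atf4 in dendritic-like cells did so in 5 of 11, and Ppp1r15a over all filtered cells in 4 of 11. The scalings moved all genes of a class or of all cells by at most 0.08 (log2). Progenitor-like cells gave no value at resolution 0.3, nor did classes that fell under 100 cells. Trib3, Ddit3 and the B cell-like and dendritic-like classes rest on few UMIs. No paired analysis was possible because each group has 1 library.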

Other observations

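Barcodes that failed only the mitochondrial limit (1558 with DHT and 1389 with vehicle, median 3672 and 3937 UMIs) held the stress genes in other proportions than the kept cells, in CPM of non-mitochondrial UMIs. Sdf2l1 was at 22.1 and 22 CPM, against 114 and 96.3 CPM in kept cells, and Hspa5 at 359.6 and 300.4 CPM, against 528 and 442 CPM. Atf4 was at 264 and 232 CPM, against 174 and 158 CPM in kept cells. Hsp90b1 was at 535 and 460.0 CPM against 596 and 509.5 CPM, and Ppp1r15a at 22.3 and 20.1 CPM against 16.7 and 16.6 CPM. Atf4 was thus higher, and Sdf2l1 and Hspa5 lower, in these barcodes in both libraries. The makeup of these barcodes by cell class was not determined.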
